A study of Mus musculus with 8 samples.

Results

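Transcripts of the choroid plexus were followed in hypothalamus RNA of mice that gained much or little weight on the same diets. The set held 9 genes chosen by symbol (Ttr, Sostdc1, Otx2, Aqp1, Folr1, Clic6, Kl, Enpp2 and Igfbp2), of 13840 genes that the array names with a probe of their own. A probe naming only that gene was found for 8 of the 9, and 7 of these had a value on all 7 arrays compared. Enpp2, which encodes the lysophospholipid enzyme autotaxin, had no probe of its own and is not analysed here. Clic6, an intracellular chloride channel protein, had a value on only 3 of the 7 arrays. The animals were male C57BL/6J mice, an inbred strain, first given the high-fat diet D12331 at 8 weeks of age per the study's methods. The high-fat diet ran for 6 weeks, was replaced by restricted low-fat chow for 2 weeks, and then returned for 6 weeks. The 2 groups differed in no allele or agent, only in whether the animals had high or low weight gain (high gainers and low gainers). Each group is 1 pool of RNA from 20 mice, hybridised to 4 arrays. The arrays are technical replicates of 1 pool, so each test compares 2 pools against the spread between arrays and says nothing of the spread between mice.

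The choroid plexus is a fold of vascular tissue covered by a secretory epithelium. It hangs in the brain ventricles and makes cerebrospinal fluid. A part of it lies in the roof of the third ventricle, close to the dissected hypothalamus. Its epithelium makes transthyretin (Ttr), the carrier of thyroxine and of retinol-binding protein in the fluid, in very large amounts. The water channel Aqp1 and the folate receptor Folr1 sit in the same cells. Otx2, a homeodomain transcription factor, is needed to form and keep the epithelium. Several of these genes are also used elsewhere. Igfbp2 is made in meninges and glia, Aqp1 in endothelium outside the brain, and Kl (klotho) in kidney and some neurons. The comparison asks how far the plexus transcripts of the 2 hypothalamus pools differ.

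The arrays carried 13657 to 16873 values each, and 11169 probes had a value on all 7 arrays used in the comparison. Low gainer array 2 stood apart. Its log2 intensities correlated across probes with those of the other arrays at an r of 0.227 to 0.241, where the other 7 correlated with each other at 0.941 to 0.987. Of the 7 measured plexus genes, Aqp1 at 0.796 and Folr1 at 0.600 lay on that array within the range of the other 7 arrays, and 5 lay outside it. There the deposited intensity of Ttr was 0.673, at rank 8458 from the brightest, and that of Sostdc1 was 0.545, while Kl stood at 44.9. This array was therefore left out, and its values are given apart. Markers of hypothalamic neurons were measured in both pools. Of 22 such genes, 19 had a probe and 17 a value on all 7 arrays. For oxytocin (Oxt) the mean intensity of high gainers was 9.04 ± 1.21 (SD, n = 4), and that of low gainers was 10.9 ± 1.13 (SD, n = 3). All intensities are deposited values in arbitrary units, and probes differ in how they respond. A rank or a sum over probes therefore places signal on an array and does not compare amounts of transcript between genes. The pituitary hormone genes differed greatly between these same pools, and the plexus genes are set beside them further on.

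No choroid plexus gene was called different between the pools. At an adjusted p of 0.05 by limma, 0 of the 7 measured genes were called, beside a background of 0.0269% of all 11169 probes. At an unadjusted p under 0.05 there was 1 gene (Aqp1), where the background was 6.48%. Of the 7 genes, 6 had a negative log2 difference of high minus low gainers and 1 (Sostdc1) a positive one. Their median log2 difference was -0.28, and that over all probes tested was -0.00239. Without low gainer array 4 the median was -0.13. In whole-tissue RNA, fewer plexus cells and less RNA per plexus cell cannot be told apart.

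**Figure D1:**
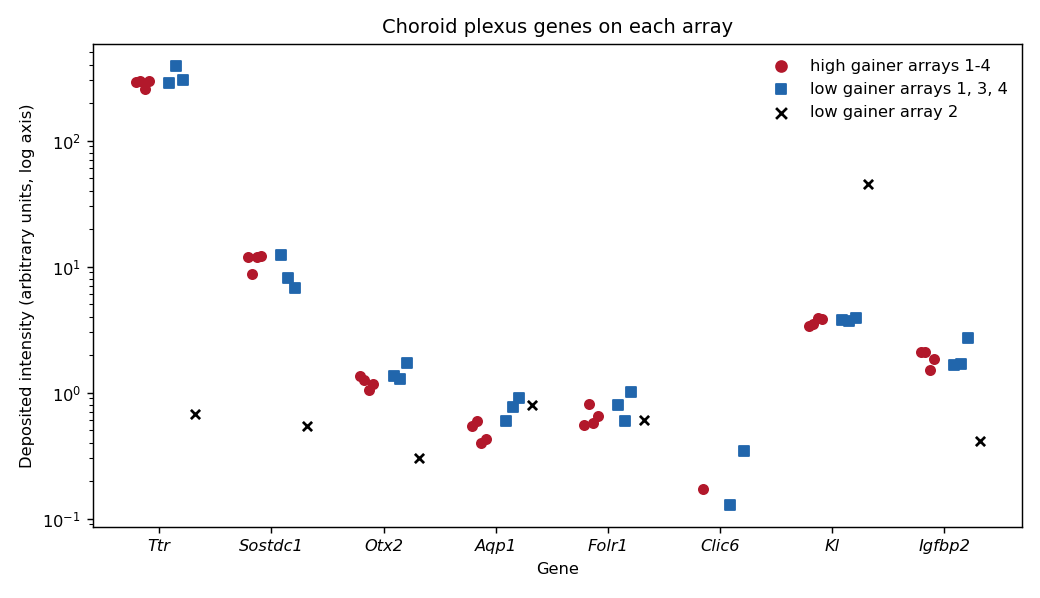
Deposited intensity on a log axis (arbitrary units) of the 8 choroid plexus genes with a probe, 1 point per array with a value; red circles are high gainer arrays, blue squares low gainer arrays 1, 3 and 4, and black crosses low gainer array 2. For Ttr the red points lie between 256.5 and 296.1 and the blue points between 283.7 and 390.9, while the cross is at 0.673.

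Ttr was among the brightest probes of every array except low gainer array 2. Its intensity was 292.9, 296.1, 256.5 and 296.1 on high gainer arrays 1 to 4. It was 283.7, 390.9 and 299.9 on low gainer arrays 1, 3 and 4. The pools overlapped, and low gainer array 3 alone lay well above the rest. The mean was 285.4 ± 19.3 (SD, n = 4) in high gainers and 324.8 ± 57.8 (SD, n = 3) in low gainers. By rank, Ttr stood between 5 and 13 from the brightest probe on the high gainer arrays and between 2 and 9 on low gainer arrays 1, 3 and 4. After quantile normalisation the log2 difference was -0.33, with a 95% interval from -0.74 to 0.08 and an adjusted p of 0.793 by limma. This interval, as a fold of high over low, ran from 0.597 to 1.06. The size of this value depended on the scaling, since it was -0.17 on the deposited values as they stand. It also depended on low gainer array 4, without which it was -0.13, and on low gainer array 1, without which it was -0.54. Array 4 held the highest Ttr value after quantile normalisation, 0.62 above the mean of the 7 arrays on the log2 scale, but not before it.

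Igfbp2, which binds insulin-like growth factors in the cerebrospinal fluid and brain, differed little. It had intensities of 2.11, 2.11, 1.499 and 1.86 on high gainer arrays 1 to 4. On low gainer arrays 1, 3 and 4 it had 1.65, 1.69 and 2.71. The lowest and the highest of the 7 values were on high gainer array 3 and low gainer array 4, so the ranges overlapped widely. The log2 difference was -0.07, with an interval from -0.52 to 0.38 and an adjusted p of 0.971 by limma. It turned to 0.13 without low gainer array 4 and to 0.03 without high gainer array 3.

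Sostdc1, a secreted antagonist of BMP and Wnt signals, was the only measured gene of the set with a higher mean in high gainers. Its intensity was 11.9, 8.75, 11.9 and 12.03 on high gainer arrays 1 to 4, and 12.4, 8.11 and 6.77 on low gainer arrays 1, 3 and 4. The highest value of all lay in the low gainer pool, on array 1, and the lowest in the same pool, on array 4. The spread within the low gainer pool, 9.08 ± 2.92 (SD, n = 3), was thus wider than the gap to the high gainer mean of 11.1 ± 1.59 (SD, n = 4). The log2 difference was 0.35, with an interval from -0.08 to 0.78 and an adjusted p of 0.793 by limma. It was 0.59 without low gainer array 1 and 0.17 without low gainer array 4.

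Otx2, the transcription factor of the set, had intensities of 1.35, 1.27, 1.04 and 1.17 on high gainer arrays 1 to 4. On low gainer arrays 1, 3 and 4 it had 1.35, 1.29 and 1.72. The deposited values overlapped, with high gainer array 1 above low gainer array 3. After quantile normalisation every high gainer array lay below every low gainer array. The log2 difference was -0.28, with an interval from -0.70 to 0.13 and an adjusted p of 0.834 by limma.

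Among the transport proteins, Aqp1 had the lowest log2 difference of the set. Its intensity was 0.540, 0.597, 0.396 and 0.425 on high gainer arrays 1 to 4, and 0.597, 0.768 and 0.906 on low gainer arrays 1, 3 and 4. The deposited values of high gainer array 2 and low gainer array 1 were nearly the same and overlapped narrowly, while the normalised values did not overlap. The means were 0.489 ± 0.0949 (SD, n = 4) and 0.757 ± 0.155 (SD, n = 3). High over low, the fold was 0.625. On the log2 scale the difference was -0.68 and its interval ran from -1.22 to -0.14. The adjusted p was 0.750 by limma over all probes, it was between 0.710 and 0.925 under the other settings with the 7 arrays, and between 0.117 and 0.999 when 1 array was left out. The probe is dim, at the 27.5 to 54.0 percentile of each of the 7 arrays, and with a pseudocount of 0.180 the log2 difference was -0.52.

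Folr1, which carries folate into the cerebrospinal fluid, had intensities between 0.549 and 0.813 on high gainer arrays. They were between 0.591 and 1.00 on low gainer arrays 1, 3 and 4, so the pools overlapped, with the highest value in low gainers and the lowest in high gainers. The log2 difference was -0.34, with an interval from -0.84 to 0.17 and an adjusted p of 0.840 by limma. It was -0.22 without low gainer array 4 and -0.47 without low gainer array 3. Clic6 had 0.173 on high gainer array 2, and 0.128 and 0.342 on low gainer arrays 1 and 4. Nothing was tested for it, and its empty cells on the other arrays cannot be read as absence.

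Kl, the ageing-linked membrane protein that acts with receptors for fibroblast growth factors, was the steadiest gene of the set. Its intensity was 3.38, 3.52, 3.92 and 3.83 on high gainer arrays 1 to 4, and 3.78, 3.67 and 3.93 on low gainer arrays 1, 3 and 4. The highest and lowest of the 7 values were 1.16-fold apart, where for Aqp1 they were 2.29-fold apart. The log2 difference of -0.05 had an interval from -0.40 to 0.30 and an adjusted p of 0.972 by limma. As a fold of high over low, values from 0.757 to 1.23 lay within the interval.

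Normalised values of the pools did not overlap for 2 of the 7 genes, Otx2 and Aqp1, both lower in high gainers. The background was 4.77% of all probes in either direction and 2.7% for lower in high gainers. On the deposited values, neither gene separated the pools. At the threshold of the study's methods, which asks for a 1.5-fold difference and an unadjusted p of 0.01, 0 of the 7 genes passed by the methods' t-test, where 9 probes were higher and 10 lower.

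**Figure D2:**
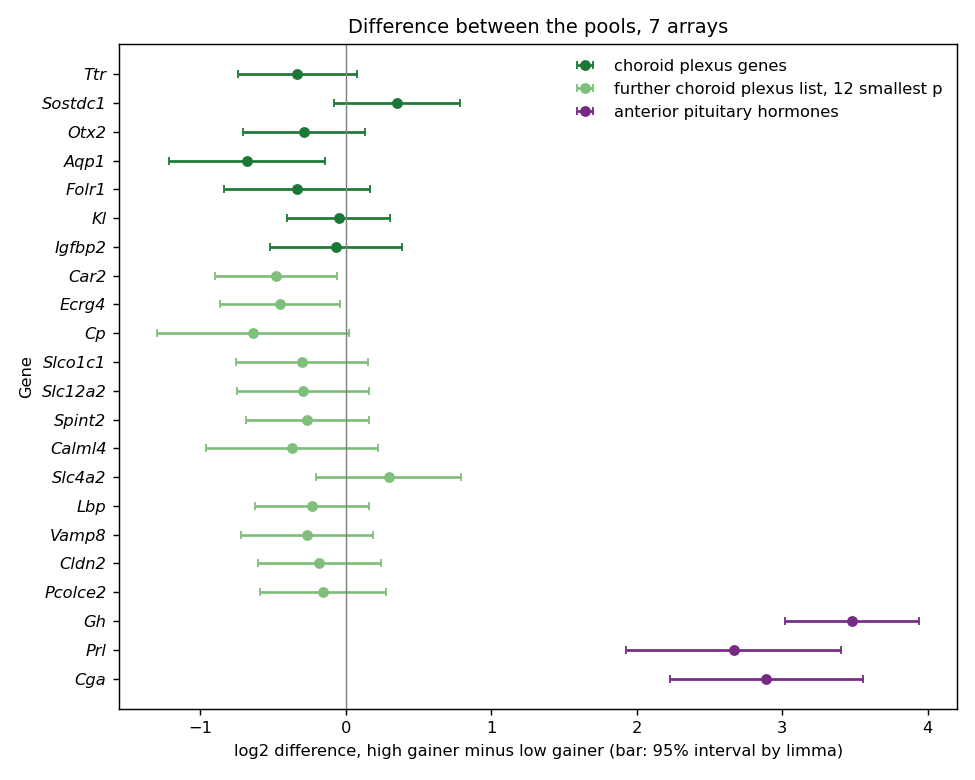
Log2 difference of high minus low gainers (horizontal axis, bars are 95% intervals by limma) for the 7 measured choroid plexus genes, the 12 genes of a further choroid plexus list with the smallest p, and 3 anterior pituitary hormone genes. Ttr lies at -0.33 and Aqp1 at -0.68, while Gh lies at 3.48 and the interval of Prl starts at 1.93.

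Start regions are shown for the 2 genes that separated the pools after normalisation, Otx2 and Aqp1. Their correlation was the highest among the 7 genes. That r includes the difference between the pools, which both genes share in sign, so it is no separate trait. The sequences are those of RefSeq on build GRCm38.p6, with 250 bases before and 50 after the gene start, written 5′ to 3′ on the strand of the gene. Windows on the chromosome of Ttr were left out of the search. Of the 9 genes, 4 (Otx2, Aqp1, Kl and Igfbp2) had windows that were used, 8 in all. They were searched on both strands for TAATCC, the core that OTX2 and related homeodomain proteins bind, whose reverse complement is GGATTA. Capitals mark the match, and the first window is one of 4 for Otx2.
Otx2 start region, chr14:48665060-48665359, minus strand: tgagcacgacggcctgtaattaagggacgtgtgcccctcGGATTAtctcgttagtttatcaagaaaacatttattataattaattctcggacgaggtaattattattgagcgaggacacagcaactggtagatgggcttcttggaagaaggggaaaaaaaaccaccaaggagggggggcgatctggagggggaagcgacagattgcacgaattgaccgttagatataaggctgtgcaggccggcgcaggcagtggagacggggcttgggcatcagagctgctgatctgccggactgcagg
Aqp1 start region, chr6:55336049-55336348, plus strand: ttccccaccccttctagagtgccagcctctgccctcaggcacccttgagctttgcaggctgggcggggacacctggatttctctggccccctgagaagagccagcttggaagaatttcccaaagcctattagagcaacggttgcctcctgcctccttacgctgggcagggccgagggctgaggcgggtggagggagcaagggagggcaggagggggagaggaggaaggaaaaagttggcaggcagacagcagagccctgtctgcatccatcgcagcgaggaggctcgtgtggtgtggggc
The match in the Otx2 window begins at base 40. It was the only one in the 8 windows, and the Aqp1 window has none. Over the 32851 windows of all genes, 7.06% hold the motif. A match is a run of letters and no evidence of binding, and its absence from a window says nothing of regions farther away.

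The measured genes did not vary over the arrays as one block. Each gene was followed as its deviation from its own mean over the 7 arrays, on the log2 scale after normalisation. On low gainer array 4, Ttr was at 0.62, Aqp1 at 0.55, Folr1 and Igfbp2 each at 0.43 and Otx2 at 0.31, while Sostdc1 was at -0.56. On high gainer array 3, Aqp1 was at -0.58, Ttr at -0.42, Igfbp2 at -0.32, Folr1 at -0.31 and Otx2 at -0.29, while Sostdc1 was at 0.26. Kl stayed between -0.16 and 0.11 on all 7 arrays. On both of these arrays Sostdc1 lay on the other side of its mean from Ttr, Aqp1, Folr1, Igfbp2 and Otx2.

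**Figure D3:**
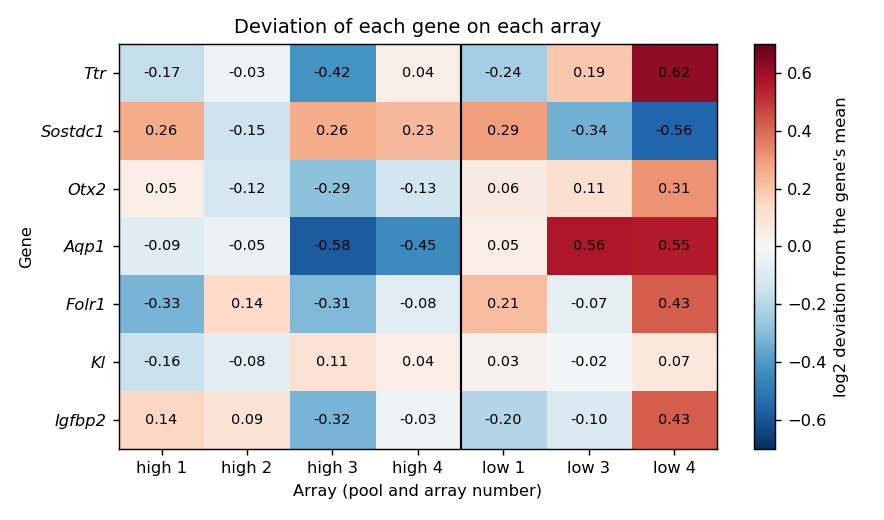
Log2 deviation, after quantile normalisation, of each choroid plexus gene (rows) from its mean over the 7 arrays (columns, high gainer arrays left of the line). Red is above and blue below the mean. Ttr reaches 0.62 on low gainer array 4, where Sostdc1 is at -0.56.

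Over the 7 arrays, the correlation with Ttr after quantile normalisation was 0.80 for Igfbp2, 0.78 for Otx2, 0.76 for Aqp1 and 0.67 for Folr1. It was 0.11 for Kl and -0.88 for Sostdc1. These r depend on the scaling of Ttr, which was highest on low gainer array 4 only after normalisation. Its deposited intensity there was 299.9, against 390.9 on low gainer array 3 and 296.1 on high gainer arrays 2 and 4. Correlations of the deposited values were not computed. The pair of Otx2 and Aqp1 had an r of 0.90. These 7 points come from 2 RNA pools and are not independent, and the genes share each array's labelling and scaling, so the values describe the arrays and carry no p. Many other probes followed Ttr as closely. By the same measure 684 of the 11169 probes had a higher r with Ttr than Igfbp2, 801 than Otx2, 969 than Aqp1 and 1635 than Folr1. For Sostdc1, only 2.81% of all probes had a lower r. The 5 named genes most like Ttr were Nip7, Usp54, Rtraf, Prdx1 and Tiprl, with r from 0.974 to 0.985. None of them is on a plexus list, and 157 probes had an r above 0.9.

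A further list of 56 genes known from choroid plexus epithelium gave the same picture of small differences. Of these, 42 had a probe and 23 a value on all 7 arrays, 13 had a value on some arrays and 6 on none. By limma 0 of the 23 were called, 8 had a positive and 15 a negative log2 difference, and the median was -0.06. Over all probes 5542 were above and 5627 below 0. When 1 array was left out the median of the list lay between -0.17 and -0.11, with more probes tested. At an unadjusted p under 0.05 there were 2, Car2 and Ecrg4. Car2, a carbonic anhydrase used in bicarbonate secretion and also abundant in oligodendrocytes, averaged 8.04 ± 1.57 (SD, n = 4) on high gainer arrays. In low gainers it averaged 11.2 ± 2.09 (SD, n = 3). Its log2 difference was -0.48, with an interval from -0.90 to -0.06 and an adjusted p of 0.752 by limma. Ecrg4, a secreted peptide precursor of plexus epithelium, had 4.13 ± 0.496 (SD, n = 4) against 5.84 ± 1.33 (SD, n = 3), with -0.45 as the log2 difference and 0.756 as the adjusted p by limma. Ceruloplasmin (Cp), a copper-carrying ferroxidase, had the lowest log2 difference of the list, -0.64, with an interval from -1.30 to 0.02. Its normalised values did not overlap between the pools, but it is very dim, at 0.192 ± 0.0528 (SD, n = 4) and 0.270 ± 0.0227 (SD, n = 3).

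Channels and transporters of the list did not pass the test. Kcne2, a potassium channel subunit of the apical membrane, was at 6.19, 4.73, 5.47 and 6.67 on high gainer arrays 1 to 4. It was at 6.64, 5.96 and 3.92 on low gainer arrays 1, 3 and 4. Like Sostdc1, it was lowest on low gainer array 4 and, among high gainer arrays, on array 2. Its log2 difference was 0.11, with an interval from -0.33 to 0.54. For Cldn2, a claudin of the epithelial tight junctions, the log2 difference was -0.18 and its interval ran from -0.61 to 0.24. The chloride cotransporter Slc12a2 was at -0.29, the bicarbonate transporters Slc4a2 and Slc4a10 at 0.29 and 0.02, and the thyroid hormone transporter Slco1c1 at -0.30. Calml4, a calmodulin-like protein, was at -0.37, the protease inhibitor Spint2 at -0.26, Vamp8, a vesicle fusion protein, at -0.27, and the lipopolysaccharide-binding protein Lbp at -0.23. Pcolce2 was at -0.16. All of these had an adjusted p of 0.843 or more by limma.

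The further list was also set against Ttr. Of its 23 genes, 17 had a positive and 6 a negative correlation with Ttr over the 7 arrays, where 52.4% of all probes had a positive one. The r with Ttr was 0.86 for Spint2 and 0.79 for Ecrg4. It was -0.92 for Rdh5, a retinol dehydrogenase, and -0.67 for Kcne2. These genes were picked for their r, and the same limits on independence and scaling hold as above.

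Other plexus genes had a value on some arrays or none, and an empty cell is not read as absence. The transcription factor Lmx1a had a value on 0 of the 7 arrays, Tmem72 and Slc13a4 on 1 each, both of them high gainer arrays. F5, coagulation factor V, had values between 0.179 and 0.258 on all 4 high gainer arrays, and 0.396 to 0.425 on 2 low gainer arrays. The carbonic anhydrase Car12 ranged from 1.23 to 2.02 over the 4 high gainer arrays, and 2 low gainer arrays had 1.91 and 2.52. Kcnj13, Prlr and Slc4a5 had no probe of their own and are not analysed here.

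Anterior pituitary hormones differed far more between the same RNA pools than any plexus gene measured. Growth hormone (Gh) had 5.86 ± 1.04 (SD, n = 4) in high gainers and 0.515 ± 0.0929 (SD, n = 3) in low gainers. Its log2 difference was 3.48, with an interval from 3.02 to 3.94, and lay above the upper end of the interval of each of the 7 plexus genes, the highest of which was 0.78 for Sostdc1. Of the 12 pituitary genes, 9 had a probe and 3 (Gh, Prl and Cga) were measured on all 7 arrays. All 3 were called by limma, and no other of the 11169 probes was. Their summed intensities were 8.30 to 10.4 on high gainer arrays and 0.837 to 1.38 on low gainer arrays. The plexus sum over its 7 genes, most of it from Ttr, was 275.9 to 316.0 against 304.3 to 407.0, and the ranges overlapped.

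Tissues that border the plexus were followed in the same way. Of 18 ependymal genes, 9 were measured, with 3 above and 6 below 0, a median log2 difference of -0.18 and 0 called. Foxj1, the master factor of motile cilia, was at 0.03 with an interval from -0.36 to 0.42, and Rarres2 at -0.41. For tanycytes, the glia that line the floor of the third ventricle, 4 of 15 genes were measured with a median of 0.04 and 0 called, and Rax, Gpr50 and Vcan had no value on any of the 7 arrays. For meninges 9 of 17 were measured with a median of -0.12 and 0 called. Ptgds, the prostaglandin D synthase that plexus epithelium makes too, was at 82.1 ± 5.77 (SD, n = 4) against 105.6 ± 22.3 (SD, n = 3). Its log2 difference was -0.39, with an interval from -0.74 to -0.03 and an adjusted p of 0.756 by limma. Decorin (Dcn) was at -0.12. The hypothalamic neuron list had a median of -0.09 over 17 genes, with 6 above and 11 below 0 and 0 called. Its log2 differences ran from -0.74 to 0.58. At an unadjusted p under 0.05 by limma there were 4, where the background was 6.48% of all probes. In this list Avp was at -0.42, Oxt at -0.27, Hcrt at -0.50 and Trh at -0.02. The medians of these lists and of the plexus lists lay within 0.3 of 0.

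Blood and myelin genes had larger medians, in opposite directions. For red cells, 3 of 10 genes were measured (Hba-a1, Hbq1a and Alas2), all below 0 and with 0 called, with summed intensities of 8.94 to 14.8 on high gainer arrays and 18.4 to 37.2 on low gainer arrays. The log2 difference of Hba-a1 was -1.14, with an adjusted p of 0.526 by limma. The low gainer arrays were higher in globin and, for 6 of 7 genes, in mean plexus signal as well. Array by array the lists did not run together. On low gainer array 3 the median deviation of the blood list was 0.78 and that of the plexus genes -0.02. On low gainer array 4 they were 0.40 and 0.43. The part of blood in the plexus values was not tested, nor was that of pituitary or myelin RNA. For oligodendrocytes, 8 of 15 genes were measured with 7 above 0, a median of 0.40 and 0 called, and summed intensities of 85.0 to 118.4 against 49.0 to 89.2. In that list the log2 difference was 1.15 for Mbp, 1.36 for Mag, 0.11 for Mog and 0.52 for Cnp.

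**Figure D4:**
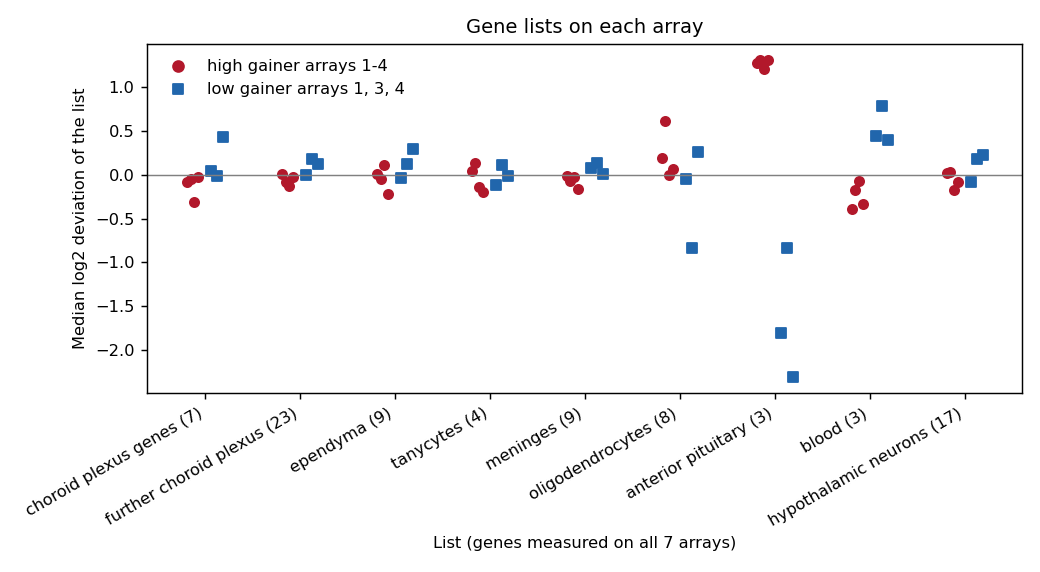
Median log2 deviation of each gene list from the mean of its genes over 7 arrays (vertical axis), 1 point per array, with the number of measured genes in brackets; red circles are high gainer and blue squares low gainer arrays. The plexus genes run from -0.31 on high gainer array 3 to 0.43 on low gainer array 4, and the pituitary list from -2.31 to 1.31.

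Large differences were found more readily than small ones in a simulation. In simulated arrays with 11169 probes, limma at the adjusted threshold found 93.6% of the 4-fold changes put in and 50.8% of the 2-fold changes. A mean of 6.4 unchanged probes per run was called as well. The simulated probes varied independently, without effects shared by an array. The changed ones were drawn from all probes, so the shares are not those of plexus genes. The intervals of Ttr, Sostdc1, Otx2, Folr1, Kl and Igfbp2 all lay within a 2-fold difference in either direction, and only that of Aqp1 reached beyond it, to a fold of 0.431. Changes under 2-fold were not simulated.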

How the data were processed

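Total RNA of 2 pools was labelled with digoxigenin and hybridised to 1-colour Applied Biosystems mouse arrays read by chemiluminescence. The deposited values are intensities on a linear scale. The study's methods state that intensities were normalised across arrays by a quantile-quantile method. The deposited arrays still differ in scale. Their highest intensity was 369.8 on low gainer array 4, 635.0 on high gainer array 3 and 701.3 on low gainer array 2. How the deposited table was scaled was thus not settled. The study's methods counted a feature as detected by limits on its signal-to-noise ratio and quality flag. The sources used here do not say whether the empty cells are the features that failed them, and these limits were not applied again here. The table held 33012 probes. Of these, 14411 named 1 gene in the platform annotation, 247 named several and 18354 are unnamed here, and 14402 of the first matched a RefSeq gene identifier of GRCm38.p6. Groups came from the sample titles. Log2 intensities of the 11169 probes with a value on 7 arrays were quantile-normalised here. High gainer arrays 1 to 4 were compared with low gainer arrays 1, 3 and 4 in R 4.3.3 by limma 3.58.1. The fit used lmFit and then eBayes with a trend, with Benjamini-Hochberg adjustment over all probes at 0.05. Empty cells were not imputed. Precision is limited by the number of arrays.

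The members, the lists and the exclusion of low gainer array 2 were chosen with earlier results of these data known. Named genes were all 9 members, the further plexus genes in order of p (up to 12) and some of the first measured genes of each other list. Genes named for lacking values, for their correlation with Ttr, or as further examples (Rdh5, Slc4a10, Car12, F5, Lmx1a, Tmem72, Slc13a4, Kcne2) were chosen after their values were seen. A list takes the brightest probe of each gene and is described by counts and its median, with no test. The lists overlap, and Slco1c1 stands in 2 of them. The procedure was tested on simulated data with 200 changed probes in each of 5 runs. Alternatives were median centring, cyclic loess, deposited values without further normalisation, all 8 arrays and the brightest 50% of probes. Others were probes with a value on at least 2 arrays of each group, a pseudocount at the 10th percentile and no trend. The rest were a block for the replicate number, the t-test with pooled variance, the mean of a gene's probes, and leaving out each array.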

Additional observations from a re-analysis of the deposited data

Results flagged for a closer look

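In groups of 4 arrays, 5 of the members' highest or lowest values lay farther from the nearest other array than Dixon's critical value for 4 samples allows. Chance flags about 1 in 20 such groups, and 14 groups were looked at. Of the 5 values, 3 were on low gainer array 2, which was left out of the comparison. They were 0.673 for Ttr, 0.301 for Otx2 and 44.9 for Kl. The other 2 were on high gainer arrays, Ttr at 256.5 on array 3 and Sostdc1 at 8.75 on array 2, in each case below the other 3 arrays of the pool. Without high gainer array 3 the log2 difference of Ttr was -0.24.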

How the results depend on the processing

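Of 116 log2 differences of the 7 plexus genes under the alternatives, 0 had an adjusted p under 0.05 and 111 kept their sign, with 0.105 as the lowest adjusted p by limma. With all 8 arrays the sign turned for Ttr, at 1.78, for Otx2, at 0.13, and for Igfbp2, at 0.32. That comparison includes low gainer array 2, and 1 probe was called in it among 5375. Igfbp2 ranged from -0.19 to 0.13 when 1 array was left out, and was above 0 without low gainer array 4 and, at 0.03, without high gainer array 3. The median of the plexus genes was 0.13 with all 8 arrays and -0.0592 with the brightest 50% of probes, where fewer genes were left, and between -0.32 and -0.13 when 1 array was left out. The median of the further list was -0.15 with all 8 arrays, -0.16 with the brightest 50% and -0.17 with values on at least 2 arrays of each group, and lay between -0.17 and -0.11 when 1 array was left out.

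Of all probes, 3 were called in the comparison of 7 arrays, those of the pituitary genes Gh, Prl and Cga. With the brightest 50% of probes 1 was called, and by the t-test with pooled variance 0 after adjustment. At an unadjusted p under 0.01 and 1.5-fold, limma gave 115 probes and that t-test gave 9 higher and 10 lower. At an unadjusted p under 0.05 limma gave 724. Leaving out 1 array gave 2 to 171 called probes, the highest without low gainer array 1 and none of them a plexus gene. With the replicate block, 9 probes were called and no plexus gene among them. Deviations of same-numbered arrays of the 2 pools correlated at -0.20, 0.13 and -0.14. Arrays of different numbers were not compared in this way, so whether the replicate numbers pair the arrays was not settled. The cause of these shifts was not tested.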
